A study of Rattus norvegicus with 4 samples.

Results

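Genes of the mitochondrial respiratory chain and of ATP synthase were followed in visceral fat of obese and control rats, complex by complex. Members were the genes whose symbol in the platform annotation begins with Nduf, Uqcr, Cox4 to Cox8 or Atp5, together with Sdha to Sdhd, Cyc1 and Cycs, each read from its probe set with the highest mean signal. Of 85 genes matched, 82 were measured, meaning that at least 2 of the 4 arrays exceeded a signal of 20.8, out of 9012 measured genes in all. They comprised 34 subunits of complex I, 4 of complex II, 8 of complex III, 12 of complex IV, 16 of complex V, and 8 assembly factors or relatives that share a prefix with the subunits. Ndufa4 was placed with complex IV, of which it is now counted a subunit. Cycs, which encodes cytochrome c, has no value here because its probe sets carry several symbols, and 9 probe sets of the family were left out for that reason.

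RNA came from visceral adipose tissue, the fat inside the abdomen, of 130 days old male rats of the Wistar strain, on 4 single-colour arrays, 2 labelled control and 2 labelled obese. The labels name no diet, allele or drug and do not say how obesity arose, and whether an array held 1 animal or a pool is stated nowhere. Every p-value here thus rests on the spread between these arrays alone, and that spread may be technical.

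The respiratory chain carries electrons from NADH (complex I, NADH dehydrogenase) and from succinate (complex II, succinate dehydrogenase) through ubiquinone to complex III (cytochrome bc1), cytochrome c and complex IV (cytochrome c oxidase), where oxygen is reduced. Complexes I, III and IV pump protons, and complex V (ATP synthase) uses the gradient to make ATP. Most subunits are encoded in the nucleus, and only genes with nuclear symbols were followed. White fat cells hold few mitochondria compared with brown fat cells, which use the proton gradient for heat through the uncoupling protein Ucp1.

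Promoter sequences are shown for 6 members as examples of 2 motifs known from nuclear genes of the respiratory chain. All but that of Ndufs3 hold a match, which is not the share among the members, given below. The windows are the 120 bases before the annotated start from RefSeq (assembly GRCr8), read 5′ to 3′ on the gene's strand. Capitals mark matches to the NRF1-type motif (GCGCA, any base, then GCGC) or to the ETS/GABP-type motif (CCGGAAG), searched on both strands. Ndufa11 had the largest log2 difference of all members, Ndufs3 one near 0, and the other 4 stand for complexes II to V.
Ndufa11: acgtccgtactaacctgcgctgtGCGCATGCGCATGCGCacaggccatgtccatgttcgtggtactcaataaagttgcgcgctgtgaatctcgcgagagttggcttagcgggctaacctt
Ndufs3: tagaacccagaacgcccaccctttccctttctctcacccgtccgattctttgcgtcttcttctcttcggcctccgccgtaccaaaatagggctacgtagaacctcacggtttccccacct
Sdha: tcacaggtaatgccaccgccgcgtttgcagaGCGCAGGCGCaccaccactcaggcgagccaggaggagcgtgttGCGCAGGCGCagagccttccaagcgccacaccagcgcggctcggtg
Uqcrc2: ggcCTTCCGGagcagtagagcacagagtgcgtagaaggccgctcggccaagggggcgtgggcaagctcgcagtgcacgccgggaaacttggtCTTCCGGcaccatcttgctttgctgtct
Cox8a: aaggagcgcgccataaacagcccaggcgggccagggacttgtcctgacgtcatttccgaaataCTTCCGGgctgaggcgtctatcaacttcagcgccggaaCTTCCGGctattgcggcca
Atp5po: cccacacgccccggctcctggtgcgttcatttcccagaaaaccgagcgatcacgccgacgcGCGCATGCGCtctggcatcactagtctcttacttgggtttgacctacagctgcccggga
The Ndufa11 window lies at chr9:1637494-1637613 (plus strand) and holds 2 overlapping NRF1-type matches. That of Ndufs3, at chr3:97339655-97339774 (minus strand), holds neither motif. The Sdha window, at chr1:30764433-30764552 (plus strand), holds 2 NRF1-type matches, and a further match runs across the start. Those of Uqcrc2, at chr1:184599120-184599239 (plus strand), and Cox8a, at chr1:213833624-213833743 (minus strand), hold 2 ETS/GABP-type matches each, and that of Atp5po, at chr11:44657484-44657603 (minus strand), holds 1 NRF1-type match.

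Over the window from 250 bases before to 50 bases after the start, the table held 66 of the 74 measured subunit genes. The NRF1-type motif was found in 13 of these 66 (19.7%), against 9.93% of 7481 genes tested on the arrays and 4.71% of all 27457 promoters in the table. The ETS/GABP-type motif was found in 20 (30.3%), against 17.1% and 9.22%. At least 1 of these 2 motifs was found in 32 (48.5%), against 24.6% and 13.0%. The YY1-type motif (AA, any base, then ATGGCGG) was found in 13 (19.7%), against 4.18% and 1.83%, and the ERR-type motif TCAAGGTCA in 2 (3.03%), against 0.174% and 0.412%. By complex, the NRF1-type motif was in 6 of 32 promoters of complex I, 1 of 4 of complex II, 1 of 6 of complex III, 0 of 9 of complex IV and 5 of 15 of complex V. Subunits with and without the NRF1-type or the ETS/GABP-type motif had close medians in fat, and the YY1-type and ERR-type motifs were not compared. The median log2 difference was 0.27 for the 13 subunits with the NRF1-type motif and 0.28 for the 53 without it, and 0.28 and 0.25 for the 20 with and the 46 without the ETS/GABP-type motif. A match describes the letters in a window, and a missing match says only that the letters are not in it.

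The deposited intensities had nearly equal trimmed means (150.026 to 150.03), while the median signal was 81.9 to 82.9 on control replicates 1 and 2 and obese replicate 1, and 74.9 on obese replicate 2. The log2 signals correlated at r = 0.976 within control, 0.966 within obese and 0.961 to 0.969 between groups, across probe sets, which are not independent replicates. The number of arrays limits the precision of every value. Adipocyte markers were bright, with Cfd (adipsin) between 3346.2 and 3533.9, and 7 of 8 measured adipocyte markers were higher in obese tissue, by a median log2 difference of 0.11. Their summed signal was 14236 and 13712 in control tissue and 13843 and 16643 in obese replicates 1 and 2. Ucp1 gave 44 and 31.5 in control and 25.8 and 33.9 in obese tissue, overlapping groups with a log2 difference of -0.33 ± 0.26. Dio2, also of brown fat, gave 3.8 to 6.4. Cidea, which brown and white fat cells both express, gave 513.9 and 560.2 in control and 663.8 and 1031.2 in obese tissue. Of the 3 measured brown fat markers 2 were higher and Ucp1 was lower. The summed signal of the 3 was 583.8 and 598 against 730.2 and 1085.9, most of it from Cidea. All 9 measured macrophage markers were lower in obese tissue (median -0.43), with summed signals of 8330 and 10356 in control against 5971 and 6024 in obese tissue. The brightest of them, the lysozyme gene Lyz2, gave 2076.6 and 2578.4 against 1989.1 and 1482.1. All 8 measured lymphocyte markers were lower too (median -0.75, summed signals of 1485 and 1107 against 746.3 and 627.1). Cd4 gave 569.1 and 540.8 against 303.2 and 270.1. Part of this rested on control replicate 1. Without that array the log2 differences were 0.14 for Cd3g, -0.016 for Cd3d, -0.048 for Cd8a and -0.20 for Cd2. They were -0.25 for Lck, -0.46 for Cd5, -0.92 for Cd4 and -1.2 for Cd37. Of 4 mesothelial markers 2 were higher, and they summed to 745.3 and 884.7 in control tissue, 1442 on obese replicate 1 and 348.5 on obese replicate 2, with Msln (mesothelin) at 375.1, 491.8, 590.7 and 164.7 on the same arrays. Of 7 endothelial markers 2 were higher, and they summed to 2050 and 2063 in control and 2006 and 1813 in obese tissue, with Emcn (endomucin) at 445.2 and 421.2 against 480.1 and 340.4. Of 6 measured skeletal muscle markers 3 were higher, with sums of 965.1 and 689.3 against 967.5 and 1087.6. Of 2 measured markers of male germ cells 1 was higher, with sums of 59 and 58.2 against 63.8 and 53.7, and Odf1 gave 23.8 to 33 on the 4 arrays. The part of these cell types in the results below was not tested, and in whole tissue fewer cells of a type and less RNA per cell cannot be told apart.

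Respiratory chain genes had slightly higher signals in obese than in control fat, and none passed the test. Of the 82 members, 74 were higher in obese tissue, where 42.4% of all 12929 tested probe sets were higher, and 7 were lower. Both obese signals exceeded both control signals, called fully above control below, for 52 members (63.4%), where 15.6% of all tested probe sets did so. Both were under both control signals, called fully below, for 3 members, against 24.4% of all tested probe sets. The median log2 difference was 0.26 over the 82 members and 0.28 over the 74 subunits, a 1.21-fold higher signal, while all tested probe sets had a median of -0.044.

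With limma's moderated test, 0 of the 82 members had an adjusted p under 0.05 over all tested probe sets, where 0% of all probe sets did, and the smallest adjusted p was 0.402. An unadjusted p under 0.05 was found for 16 members, where 8.3% of all tested probe sets had one. All 16 were higher in obese tissue, as were 3.07% of all tested probe sets at that p. A plain test without moderation passed 0 members after adjustment and 13 before it. With 2 arrays in each group an exact two-sided permutation test cannot give a p below 0.333, so none was run.

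The background differed with brightness. Among the 1687 tested probe sets at least as bright as the lower quartile of the subunits (a mean log2 signal of at least 8.636), 58% were higher in obese tissue, 26.8% were fully above control, 18.1% were fully below, and the median log2 difference was 0.043. Among the 74 subunits themselves, mean log2 signal and log2 difference were nearly unrelated across genes (Pearson r = 0.106, Spearman rho = 0.0289), which is a description of probe sets on the same 4 arrays. The split of all tested probe sets also depends on scaling. With each array centred on its median, 22.1% lay wholly above and 16.6% wholly below control, and 59 members lay above and 1 below. Quantile normalization gave 18.7% and 20.6%, and cyclic loess 19% and 20.3%, with 58 members above and 3 below under each.

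Obese replicate 2 carried the larger share of the difference. Of the 82 members, 60 had their highest signal on that array, 11 on obese replicate 1, 6 on control replicate 1 and 5 on control replicate 2. Obese replicate 2 exceeded obese replicate 1 for 64 members, where 42.2% of all tested probe sets and 66.2% of the bright ones did so. Without obese replicate 2 the median over the members was 0.14 in place of 0.26, 70 members were higher, and 56 had the remaining obese array above both control arrays, where 32.1% of all tested probe sets and 34.7% of the bright ones did. Without obese replicate 1 the median was 0.36, 72 members were higher, and 67 had the remaining obese array above both controls, where 28.7% of all tested probe sets and 53.6% of the bright ones did. The sign of the difference held whichever array was left out for 63 members, 60 higher and 3 lower.

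The medians of the 5 complexes lay close together. The median log2 difference was 0.31 for complex V, 0.27 for complex I, 0.23 for complex III, 0.23 for complex II and 0.22 for complex IV. The highest and the lowest of these medians differed by 0.09, less than the interquartile range among the subunits of each complex, which ran from 0.11 in complex V and 0.11 in complex II to 0.22 in complex I. Measured against the mean of the control arrays, the median subunit of complex V stood at 0.21 on obese replicate 1 and 0.42 on obese replicate 2. The corresponding values were 0.16 and 0.39 for complex I, 0.13 and 0.30 for complex II, 0.12 and 0.28 for complex III, and 0.072 and 0.28 for complex IV. The gap between complexes V and IV was thus 0.14 on each obese array, and 0.025 and -0.025 on control replicates 1 and 2.

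Complex V had the highest median in 16 of the 17 ways the data were processed, and complex I in the remaining one, without control replicate 2. Complexes V and I were the leading pair in 16 of 17, and complex IV came last in 10 of 17. Some of the 17 cannot change the order and only repeat it. Median centring moves all differences alike, and the other variance models and the replicate block leave them as they are. Without the filter on dim probe sets, which adds Cox6a2, Cox6b2 and Cox8b, the median of complex IV was 0.13. With a floor at the 10th percentile it was 0.28, next after complex V. It was 0.25, ahead of complexes III and II, with a floor at the 40th percentile and also with all arrays required above the floor. As reported, complex IV includes Cox7a1, whose difference the floor held at 0. No test between complexes was made, since an exact permutation test over the 4 arrays cannot give a p below 0.333, and 10 pairs of complexes were set side by side. Fully above control were 25 of 34 subunits of complex I (73.5%), 3 of 4 of complex II (75%), 5 of 8 of complex III (62.5%), 6 of 12 of complex IV (50%) and 12 of 16 of complex V (75%), beside the 15.6% of all tested probe sets. With obese replicate 1 alone against both controls the numbers were 26, 3, 5, 6 and 13. In that comparison 32.1% of all tested probe sets and 34.7% of the bright ones lay above both controls.

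**Figure D1:**
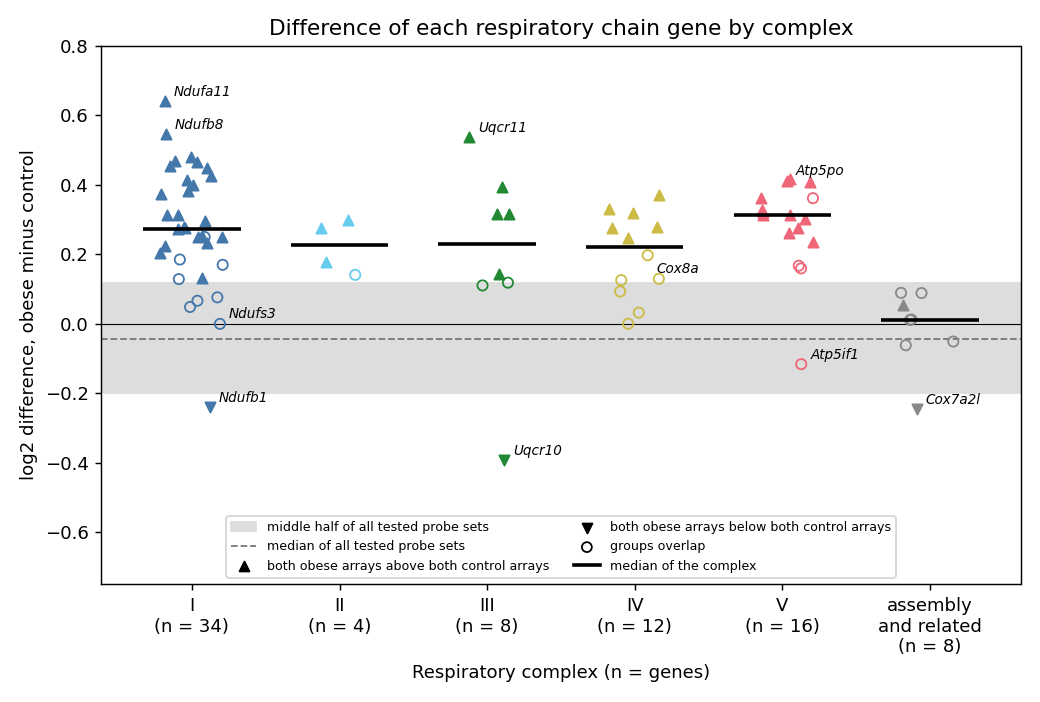
Each point is 1 gene, placed by its complex and by its log2 difference (obese minus control), with a bar for the median of each group, a grey band for the middle of all tested probe sets from the lower to the upper quartile, and a dashed line at their median of -0.044. Upward triangles are genes whose 2 obese arrays both exceed both control arrays, downward triangles those that lie below both, and open circles those that overlap; the medians of the complexes lie between 0.22 and 0.31 and that of the assembly group at 0.011.

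**Figure D2:**
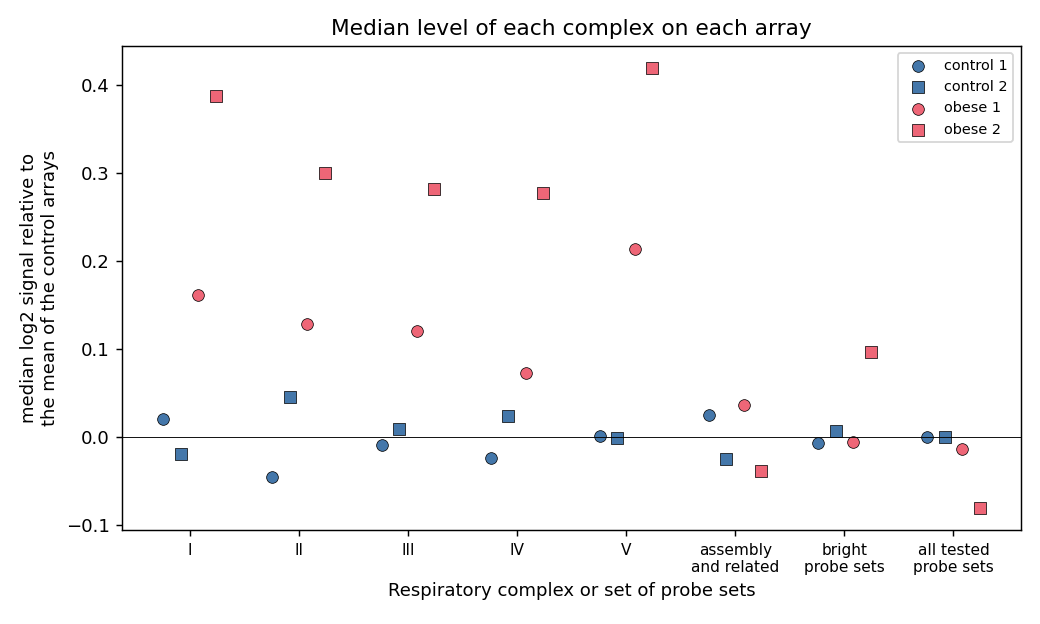
For each complex, for the assembly group, for bright probe sets and for all tested probe sets, the 4 points give the median log2 signal on each array relative to the mean of the 2 control arrays. In each complex both obese arrays stand above both control arrays, and obese replicate 2 stands highest, at 0.28 to 0.42.

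Complex I takes electrons from NADH in a matrix arm, which holds the core subunits encoded in the nucleus, and pumps protons in a membrane arm. The 6 measured core subunits had a median log2 difference of 0.25, with 5 of them fully above control. The 28 accessory subunits had one of 0.27, with 20 fully above. Of all tested probe sets 15.6% were fully above control, and of the bright ones 26.8%. Without obese replicate 2 the medians were 0.19 for the core and 0.14 for the accessory subunits, so that their order turned. Of the core subunits, Ndufs1, which carries iron-sulfur clusters, led with signals of 225.5 and 229.6 on the control arrays and 280.1 and 310.3 on the obese arrays. Both obese values exceeded both control values, and the log2 difference was 0.37 ± 0.13 (SE, n = 2 per group; limma adjusted p = 0.557). Ndufv1, which binds NADH, differed by 0.30, Ndufv2 by 0.28, Ndufs7 by 0.22 and Ndufs8 by 0.13. Ndufs3, a core subunit near the ubiquinone site, gave 369.6 and 312.4 in control and 358.9 and 321.5 in obese tissue. Its groups overlapped and its log2 difference was -0.00048 ± 0.15, turning to 0.079 with median centring.

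Among the accessory subunits, Ndufa11 of the membrane arm had the largest difference of all 82 members. Its signals were 307.6 and 277.6 in control and 436.1 and 476.3 in obese tissue. The groups stood well apart, with means of 292.6 ± 21.2 (SD, n = 2) and 456.2 ± 28.4, a log2 difference of 0.64 ± 0.13 (limma adjusted p = 0.402), and the difference was 0.57 to 0.72 whichever array was left out. Other membrane arm subunits followed, with Ndufb8 at 0.54, Ndufc1 at 0.48, Ndufb2 at 0.47, Ndufb7 at 0.47 and Ndufb3 at 0.45. Ndufa12 and Ndufa7, of the matrix arm, differed by 0.45 and 0.42. The mitochondrial acyl carrier protein Ndufab1, which also serves fatty acid synthesis inside mitochondria, differed by 0.38. The 11 subunits named Ndufb had a median of 0.31, the 11 named Ndufa 0.27, the 3 named Ndufv 0.28 and the 6 named Ndufs 0.099. Without obese replicate 2 these medians were 0.17, 0.069, 0.21 and 0.14, so that Ndufa no longer stood above Ndufs.

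Ndufb1, a small subunit of the membrane arm, ran the other way. It gave 531.6 and 473.9 in control and 406.7 and 443.8 in obese tissue. Both obese values lay below both control values, with a log2 difference of -0.24 ± 0.13 (limma adjusted p = 0.682) and of -0.16 to -0.32 whichever array was left out. With median centring the difference was -0.16 and the groups overlapped. The accessory subunits Ndufs4, Ndufs6 and Ndufa6 had differences of 0.048, 0.066 and 0.076 with overlapping groups.

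Complex II oxidises succinate, links the citric acid cycle to the chain, and pumps no protons. All 4 of its genes were higher in obese tissue, with differences between 0.14 and 0.30. Sdhb, the iron-sulfur subunit, gave 497.3 and 519.4 in control and 581.6 and 651.2 in obese tissue, a log2 difference of 0.28 ± 0.13 (limma adjusted p = 0.630). Sdhd and Sdhc anchor the enzyme in the membrane. Sdhd gave 744.4 and 697.5 against 795.1 and 989.9, a difference of 0.30 ± 0.15, and a further probe set of the gene gave 467.3 and 466.3 against 465.8 and 584, with overlapping groups. Sdhc gave 780.5 and 875.2 against 894.9 and 977.3, a difference of 0.18 ± 0.13. The groups of Sdhd, read from its brighter probe set, and of Sdhc did not overlap, and the gap between the nearest arrays of Sdhc was small beside the spread within each group. Sdha, the flavoprotein that binds succinate, gave 758.5 and 823.1 against 812.3 and 934, overlapping groups with a difference of 0.14 ± 0.14. Without obese replicate 2 the 4 differences were 0.20 for Sdhb, 0.14 for Sdhd, 0.12 for Sdhc and 0.040 for Sdha.

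Complex III passes electrons from ubiquinol to cytochrome c. Its electron-carrying subunit Cyc1, cytochrome c1, gave 553 and 554.3 in control and 685.7 and 772.2 in obese tissue. The control arrays nearly coincided and both obese arrays stood above them, with a log2 difference of 0.39 ± 0.13 (limma adjusted p = 0.522). Uqcrfs1, the Rieske iron-sulfur protein, differed by 0.11. The core proteins Uqcrc1 and Uqcrc2 each differed by 0.32, and the small subunits Uqcr11, Uqcrq and Uqcrh by 0.54, 0.14 and 0.12. Without obese replicate 2 these 3 differences were 0.27, 0.041 and 0.039. Uqcr10, another small subunit, gave 754.2 and 899.5 in control and 563.8 and 698 in obese tissue. Both obese values lay below both control values, and the log2 difference of -0.39 ± 0.17 (limma adjusted p = 0.615) was the lowest of all members. Leaving out obese replicate 1 gave -0.24 and leaving out obese replicate 2 gave -0.55, and its groups overlapped with median centring, where the difference was -0.31.

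Complex IV reduces oxygen, and several of its nuclear subunits come in isoforms that differ between tissues. The widely expressed isoform Cox4i1 gave 1897.3 and 1945.2 in control and 1993.3 and 2716.2 in obese tissue. Both obese arrays were above control, but replicate 1 only slightly, and the difference of 0.28 ± 0.19 (limma adjusted p = 0.741) was 0.053 without obese replicate 2. Its partner Cox4i2, known from lung, gave 76 and 83.6 in control and 82.9 and 80.1 in obese tissue, overlapping groups with a difference of 0.032 ± 0.18. Cox8a gave 2094 and 2287.5 against 2247.1 and 2801.7, overlapping groups with a difference of 0.20 ± 0.17, which was 0.038 without obese replicate 2.

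The isoforms typical of heart and skeletal muscle were dim. Cox6a2 gave 4.8 to 6.9 and Cox8b, which brown fat also uses, 1.2 to 3.1 on the 4 arrays, all under the floor of 20.8. Cox7a1, a further isoform of muscle and brown fat, gave 27.4 and 10.9 in control and 19.7 and 27.4 in obese tissue, with 2 arrays above the floor and 1 in each group under it, so that its floored log2 difference was 0. A floor at the 10th percentile gave 0.43, and a pseudocount in its place gave 0.20. Cox6b2, known from testis, gave 9.2 to 21 and was not measured. The skeletal muscle markers Myh2 and Myh4 gave at most 13 on any array, while Myh1 gave 490.2 to 905. Acta1 gave 2.5 to 39 and was not measured. The other measured muscle markers, Ckm, Tnnt3, Tnni2, Myl1 and Atp2a1, gave 28.9 to 67.4.

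Among the other subunits of complex IV, Ndufa4 gave 1014.2 and 1088.8 in control and 1237.8 and 1491.6 in obese tissue. Its groups did not overlap and differed by 0.37 ± 0.15 (limma adjusted p = 0.599). Cox6a1, Cox5a, Cox5b and Cox7c differed by 0.33, 0.32, 0.28 and 0.25 with groups that did not overlap. Cox6c, Cox7b and Cox6b1 had overlapping groups and differed by 0.13, 0.13 and 0.093.

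Complex V couples the proton flow through its membrane part, Fo, to ATP synthesis in its catalytic part, F1. The 5 measured subunits of F1 had a median log2 difference of 0.31. The 11 measured genes of the membrane part, the peripheral stalk and the inhibitor also had one of 0.31. In F1, the epsilon subunit Atp5f1e gave 782.7 and 792.2 in control and 955 and 1156.9 in obese tissue, groups apart by 0.42 ± 0.14 (limma adjusted p = 0.557). The gamma, delta and alpha subunits Atp5f1c, Atp5f1d and Atp5f1a differed by 0.31, 0.33 and 0.27. The catalytic beta subunit Atp5f1b gave 2253.5 and 2240.6 in control and 2146.4 and 2965 in obese tissue, so that 1 obese array lay below and the other above both controls. Its difference of 0.17 ± 0.20 was 0.40 when obese replicate 1 was left out and -0.066 when obese replicate 2 was.

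In the peripheral stalk, which holds the catalytic head of F1 still, Atp5po (OSCP) gave 483.9 and 472.2 in control and 622.6 and 650.1 in obese tissue. Both pairs of arrays were close together and far from each other, with a difference of 0.41 ± 0.12 (limma adjusted p = 0.511) and of 0.38 to 0.44 whichever array was left out. The other stalk subunits Atp5pf, Atp5pb and Atp5pd differed by 0.36, 0.32 and 0.30, all with groups that did not overlap. In the membrane part, Atp5mg differed by 0.41, Atp5mf by 0.31, Atp5mk by 0.26 and Atp5mpl by 0.23. Atp5me differed by 0.36, but its control arrays were apart (417.3 and 243.4) and the groups overlapped. Its difference turned to -0.027 without control replicate 2, and a further, dimmer probe set of the gene gave -0.029 ± 0.26. Atp5mc3, which encodes the c subunit of the proton-driven ring, differed by 0.16. Atp5if1, the inhibitor that blocks ATP hydrolysis when the gradient collapses, gave 124.7 and 232 in control and 151.2 and 162.8 in obese tissue. Its obese arrays lay between the controls, with a difference of -0.12 ± 0.30, which turned to 0.33 when control replicate 2 was left out and was -0.56 when control replicate 1 was.

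**Figure D3:**
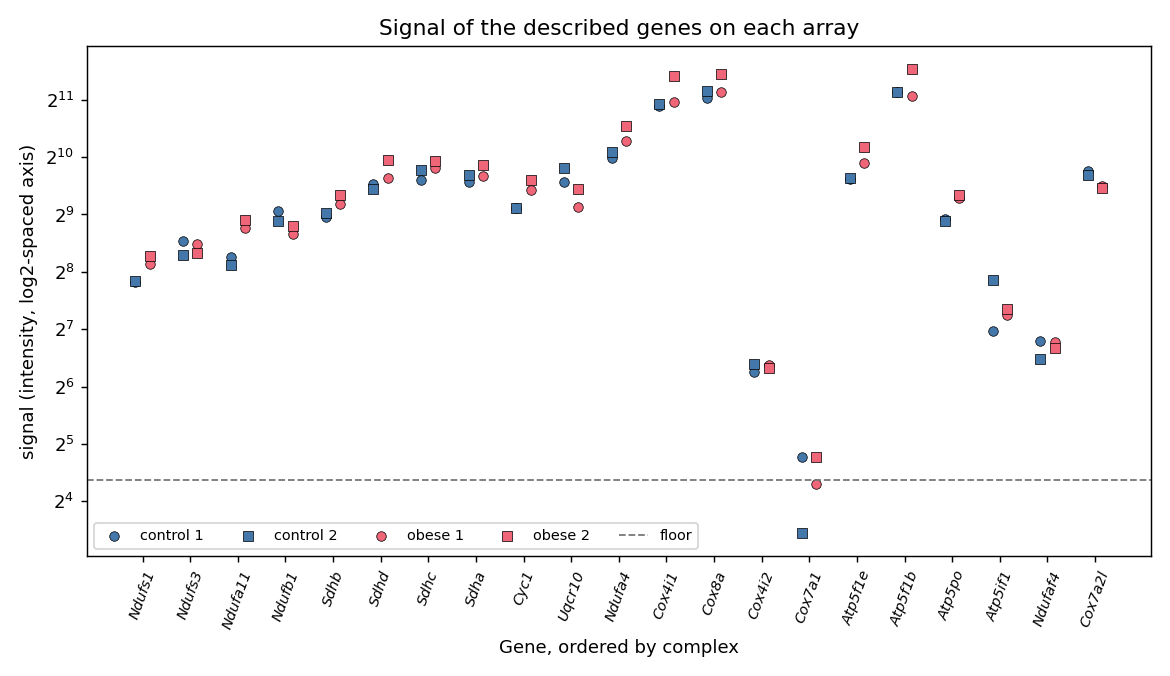
The signal of 21 described genes is plotted for each array on a log2-spaced axis, with genes ordered by complex, controls in blue and obese arrays in red, and the floor of 20.8 as a dashed line. Atp5po and Ndufa11 have pairs of arrays well apart, Uqcr10 and Cox7a2l have the obese arrays below, and only Cox7a1 reaches the floor.

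The 8 assembly factors and relatives that share the subunits' prefixes had a median log2 difference of 0.011. Of them 5 were higher and 3 lower, 1 (12.5%) was fully above control and 1 fully below, where 15.6% and 24.4% of all tested probe sets were. They were dimmer than the subunits, with a median of the mean log2 signals of 6.52 against 9.29. Ndufaf4, a complex I assembly factor, gave 110.6 and 89.5 in control and 110.2 and 101.6 in obese tissue, overlapping groups with a difference of 0.089 ± 0.19. Cox7a2l, which helps join complexes III and IV into supercomplexes, gave 862.8 and 828.3 in control and 721.3 and 703.9 in obese tissue. Both obese values lay below both controls, with a difference of -0.25 ± 0.12 (limma adjusted p = 0.654), and it was the only member to stay fully below control under each of the 3 other scalings as well. Ndufa4l2, a relative of Ndufa4 that responds to low oxygen, differed by -0.051, and the pseudogene Cox6c-ps1, which can share signal with Cox6c, by 0.012.

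Genes outside the prefixes were read from lists of the same pathway. Of 31 measured further assembly factors, 20 were higher and 11 lower, 8 were fully above control and 3 fully below (15.6% and 24.4% of all tested probe sets), and the median log2 difference was 0.079. None passed the limma test, and the same holds for each list that follows. Uqcc2, a complex III assembly factor, gave 115.8 and 150.8 in control and 194.4 and 248 in obese tissue, a difference of 0.73 ± 0.20 (limma adjusted p = 0.497). Cox14, a complex IV assembly factor, gave 236.9 and 264.8 against 201.7 and 172.6, a difference of -0.42 ± 0.15. Of 11 measured genes of ubiquinone synthesis and binding, 7 were higher, with a median of 0.074. Among these 11, 3 were fully above control and 3 fully below, beside the same shares of all tested probe sets. Coq10b gave 180.5 and 188.3 against 271.7 and 278.6 (0.58 ± 0.13) and Coq8a gave 209.3 and 188.3 against 137.6 and 134.3 (-0.55 ± 0.14), each with groups that did not overlap.

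Of 23 listed regulators of mitochondrial biogenesis 11 were measured. Of these 11, 4 were higher and 7 lower, 0 were fully above and 0 fully below control (15.6% and 24.4% of all tested probe sets), and the differences ran from -0.11 to 0.18 with a median of -0.035. Tfam, which packages and transcribes mitochondrial DNA, gave 198.3 and 173.5 in control and 171.5 and 173.7 in obese tissue (-0.10 ± 0.14), and the nuclear receptor Esrra gave 43 and 35.3 against 50 and 33.2 (0.065 ± 0.27, and -0.23 without obese replicate 1). Polg2, of the mitochondrial DNA polymerase, gave 54.7 and 45.9 against 52.3 and 62 (0.18 ± 0.21). The coactivator Ppargc1a gave 0.4 to 0.6 on the 4 arrays and was not measured. The transcription factors Nrf1 and Gabpa and the coactivator Ppargc1b were among those not analysed here.

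Among 10 measured carriers, porins and uncoupling proteins, 7 were higher, with a median of 0.16, 1 was fully above control and 1, Ucp2, fully below (15.6% and 24.4% of all tested probe sets). The ADP/ATP carriers Slc25a4 and Slc25a5 differed by 0.11 ± 0.15 and 0.21 ± 0.18 with overlapping groups, and by -0.022 and 0.027 without obese replicate 2. Ucp2, an uncoupling protein, gave 508.9 and 631.1 in control and 453 and 447.2 in obese tissue (-0.33 ± 0.15), and was -0.18 without control replicate 2. Ucp3 gave 272.6 and 185.6 against 248.3 and 335.4 (0.36 ± 0.24). Of 8 measured genes that feed electrons to ubiquinone by other routes, 6 were higher, with a median of 0.073. Among these 8, 4 were fully above control and 1 fully below (15.6% and 24.4% of all tested probe sets). Etfdh, which passes electrons from fatty acid oxidation to ubiquinone, gave 156.4 and 132.2 against 182.9 and 229.8 (0.51 ± 0.18). Gpd2, the mitochondrial glycerol phosphate dehydrogenase, gave 67.3 and 74.1 against 56.6 and 50.5 (-0.40 ± 0.19).

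**Figure D4:**
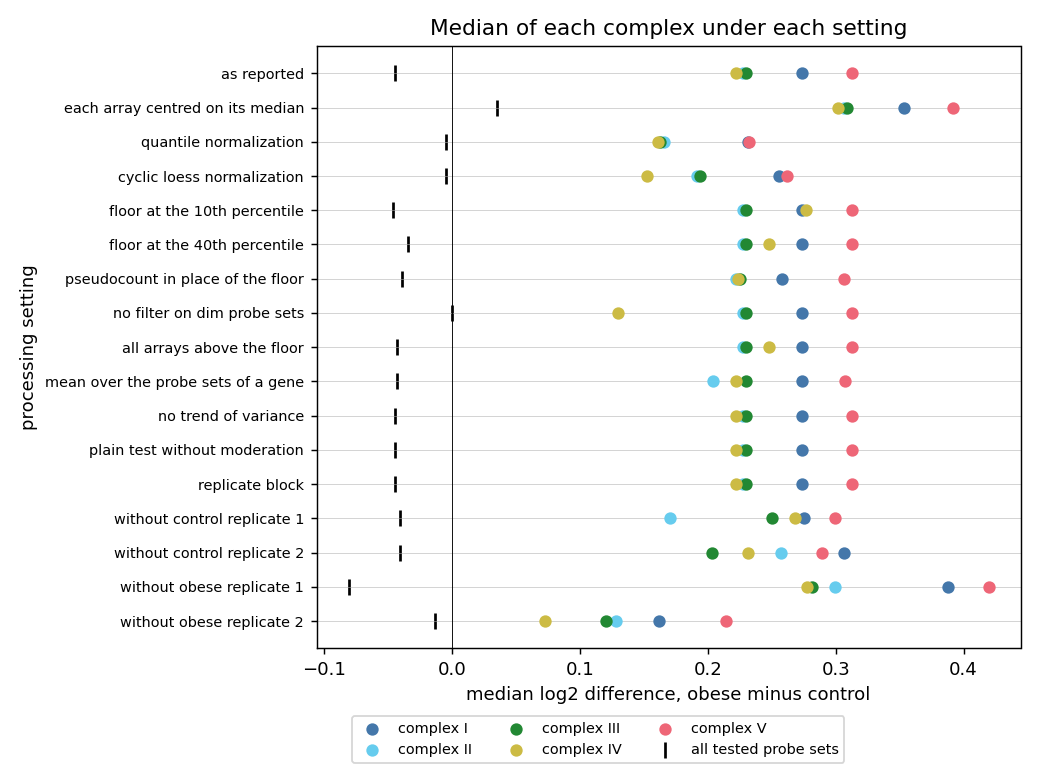
The median log2 difference (obese minus control) of each complex and of all tested probe sets is shown for each of 17 processing settings, 1 setting per line. The medians of all complexes stay above 0 and above that of all tested probe sets in each setting, and they are lowest, at 0.072 to 0.21, without obese replicate 2.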

How the data were processed

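The authors' deposited values are intensities, 1 per array for each of 15923 probe sets, on a linear scale. The software behind them is not given in the sources used here. The deposited intensities share a mean after trimming 2% at each end. The 57 control probe sets were left out, and of the other 15866 the 12783 paired with 1 symbol in the platform annotation were named. RefSeq genes of GRCr8 held 12748 of these by Entrez identifier and changed 0 symbols.

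Signals under the 20th percentile (20.8) were set to it before taking log2. The 12929 probe sets above it on at least 2 arrays were fitted with limma 3.58.1 in R 4.3.3 (lmFit, eBayes with trend), and two-sided p-values were adjusted over all of them (Benjamini-Hochberg). Errors of log2 differences are moderated standard errors with 5.83 degrees of freedom. The code was tested on simulated data.

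Members and lists were chosen with earlier results of these data known. Values on every array are given for the largest and smallest moderated t in each class of subunits, all of complex II, isoform partners, Atp5po, Cox8a, Ndufs3 and Atp5if1, for the largest and smallest t of each pathway list, for the brightest gene of each marker list, and for Ucp1, Ppargc1a, Tfam and Esrra; Slc25a4 and Slc25a5 are given by their differences. Members named with a difference alone, the unmeasured genes, Atp5me, Dio2 and the muscle markers other than Myh1 were picked after their values were seen. The same holds for the comparison with bright probe sets and for the lymphocyte markers without control replicate 1. Cfd, Odf1, Myh1 and Ppargc1a are given by their range over the arrays. Adipoq was not analysed here.

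Alternatives were 3 other scalings, floors at the 10th and 40th percentile, a pseudocount of 16, no filter or one requiring all arrays, averaging of a gene's probe sets, other variance models, a replicate block, and each array left out, where the remaining array is taken to vary as the other group does.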

Additional observations from a re-analysis of the deposited data

How the results depend on the processing

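The number of members called stayed at 0 under each of the 16 alternatives, and the number of all probe sets called was 0 except for 1 with median centring, 3 with the pseudocount, 6 with no filter on dim probe sets and 1 without a trend of variance. The members higher in obese tissue numbered 70 to 78, with 74 as reported, where 42.4% of all tested probe sets were higher. With median centring 78 members and 55.9% of all tested probe sets were higher. Quantile normalization and cyclic loess each gave 77 members and 49.2%. This share was not computed with an array left out. Those fully above control numbered 51 to 59 with all arrays kept and 56 to 67 with an array left out. The share of all tested probe sets was 15.6% as reported, 22.1% with median centring, 28.7% without obese replicate 1 and 32.1% without obese replicate 2. It was not computed with a control array left out. Members fully below numbered 1 with median centring (16.6% of all tested probe sets), and 4 to 7 with an array left out. The share of all was not computed for the latter. With arrays left out in turn, the median log2 difference ran from 0.14 to 0.36 over all members, from 0.16 to 0.39 for complex I, from 0.13 to 0.30 for complex II, from 0.12 to 0.28 for complex III, from 0.072 to 0.28 for complex IV, from 0.21 to 0.42 for complex V and from -0.081 to -0.014 for all tested probe sets. Obese replicate 2 set each of these lower bounds of the members and complexes. The median of all tested probe sets turned to 0.035 with median centring, and was -0.0047 with quantile normalization, -0.0046 with cyclic loess and 0 with no filter. Among members described on every array, the sign turned with an array left out for Atp5f1b (-0.066 to 0.40, turned without obese replicate 2), Atp5if1 (-0.56 to 0.33, turned without control replicate 2), Cox4i2 (-0.037 to 0.10, turned without control replicate 1), Ndufaf4 (-0.064 to 0.24, turned without control replicate 2) and Ndufs3 (-0.12 to 0.12, turned without control replicate 1 and without obese replicate 2). For Ndufs3 it also turned with median centring, to 0.079. Of the pathway genes described outside the members, Esrra (-0.23 to 0.36) and Slc25a4 (-0.022 to 0.23) also turned with an array left out. None of these differences passed the test, and the cause of these turns was not tested. The labels give both groups replicates 1 and 2, but same-numbered arrays deviated together only weakly (r = 0.0482), so the numbers were not taken to pair the samples. With the replicate number as a block, the median of the members was 0.26, 0 probe sets and 0 members were called, and the smallest adjusted p of a member was 0.444 (limma). Signals under the floor have only a bound.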
